A study of Mus musculus with 40 samples.

Results

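The cytosolic ribosomal protein genes are the genes whose symbols begin with Rpl or Rps followed by a number, with at most the suffix a, x, l or al, together with Rplp0, Rplp1, Rplp2 and Rpsa. They were chosen by symbol alone, and 80 of the 15958 genes of the expression table met the rule, 48 of the large and 32 of the small ribosomal subunit. Rpl24, Rpl3l, Rpl10l and Rpl39l were not analysed here. The mouse annotation GENCODE M21 (GRCm38) places the 80 genes on 19 chromosomes and calls 77 of them protein coding. Rpl6l and Rpl32l are processed pseudogenes in it and Rps4l a transcribed processed pseudogene.

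RNA sequencing was performed on 40 libraries from wild type male C57BL/6 mice, 11 of the duodenum, 11 of the ileum and 18 of the liver. All mice were operated on at 8 weeks of age, received either a sham operation or small bowel resection (SBR, which the labels give as removal of 50 to 60% of the small bowel, while the study's methods give a larger extent), and were dosed daily for 7 weeks from 3 weeks after surgery. Sham mice and 1 group of SBR mice received vehicle, and the other SBR mice received WUSTL0717 at 30 mg/kg, an agonist of the liver X receptors that acts mainly in the gut. No sham mice treated with WUSTL0717 were in the series. Duodenum and ileum each had 3 sham vehicle, 4 SBR vehicle and 4 SBR WUSTL0717 libraries, and liver had 5, 8 and 5. The ileum was taken downstream of the surgical join, and the duodenum lay upstream of the removed segment. The labels number the libraries but do not name mice, and p-values measure the spread between these libraries.

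Ribosomal proteins assemble with ribosomal RNA into the small subunit, which decodes the messenger RNA, and the large subunit, which forms the peptide bond. Cells make these proteins in matched amounts, and their messenger RNAs begin with a terminal oligopyrimidine tract through which the mTOR pathway and the binding protein LARP1 set their translation. In the intestine, rapidly dividing crypt cells and antibody-secreting cells are rich in ribosomes. The comparisons ask whether these genes changed in level after resection and whether WUSTL0717 altered them, in each tissue and between the intestinal regions.

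Levels are log2 TPM, where TPM is a gene's length-scaled share of a library's reads and a difference of 1 is a doubling. Libraries differed in composition: protein-coding genes held 27.9 to 61.2% of the summed TPM in duodenum, 56.8 to 76.6% in ileum and 39.7 to 72.1% in liver. Each comparison was therefore also made after subtracting the library median over all genes, called centring here. The table carries no read totals, so the depth is unknown and gives no interval for a value. The duodenal markers Pdx1 and Gata4 summed to 66.2 to 104 TPM in the duodenal libraries, where the ileal markers Fabp6 and Slc10a2 summed to at most 0.939 TPM, and the ileal markers summed to 85.8 to 517 TPM in ileum. The authors' batch adjustment brought the gene means of liver and intestine together, so that levels were not compared between them and the liver label could not be checked by marker level. In bulk tissue, fewer cells of a type and less RNA per cell cannot be told apart.

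The order of the 80 genes by level was led by Rplp1, an acidic protein of the large subunit stalk that recruits elongation factors. Rplp1 (chr9:61913284-61914542, minus strand) averaged 9.73 ± 1.14 log2 TPM in duodenum (SD, n = 11), 11.06 ± 0.62 in ileum (n = 11) and 11.13 ± 0.23 in liver (n = 18). Rpl36 (chr17:56613416-56614243, plus strand), Rps15 and Rplp0, the stalk base protein (chr5:115559467-115563727, plus strand), held ranks 2 to 4 in each tissue. In ileum Rpl36 averaged 10.005 ± 0.49 and Rplp0 10.001 ± 0.48 (SD, n = 11), which did not differ beyond their spread. At the other end, Rps10 (chr17:27630418-27636669, minus strand), a protein of the small subunit, averaged 1.51 ± 0.52 in duodenum, 2.32 ± 0.29 in ileum and 2.17 ± 0.26 in liver. Rpl36al (chr12:69182731-69184083, minus strand), a close copy of Rpl36a, averaged 2.47 ± 1.42, 2.04 ± 0.22 and 2.675 ± 0.26. Rpl13a averaged 2.802 ± 0.99, 3.89 ± 0.40 and 3.80 ± 0.30, and the pseudogene Rpl6l 2.61 ± 0.77, 4.24 ± 0.60 and 3.93 ± 0.24. The authors counted only uniquely aligned, unambiguous reads, and reads shared with the many processed copies of these genes were not counted, so the level of a single member is uncertain.

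**Figure D1:**
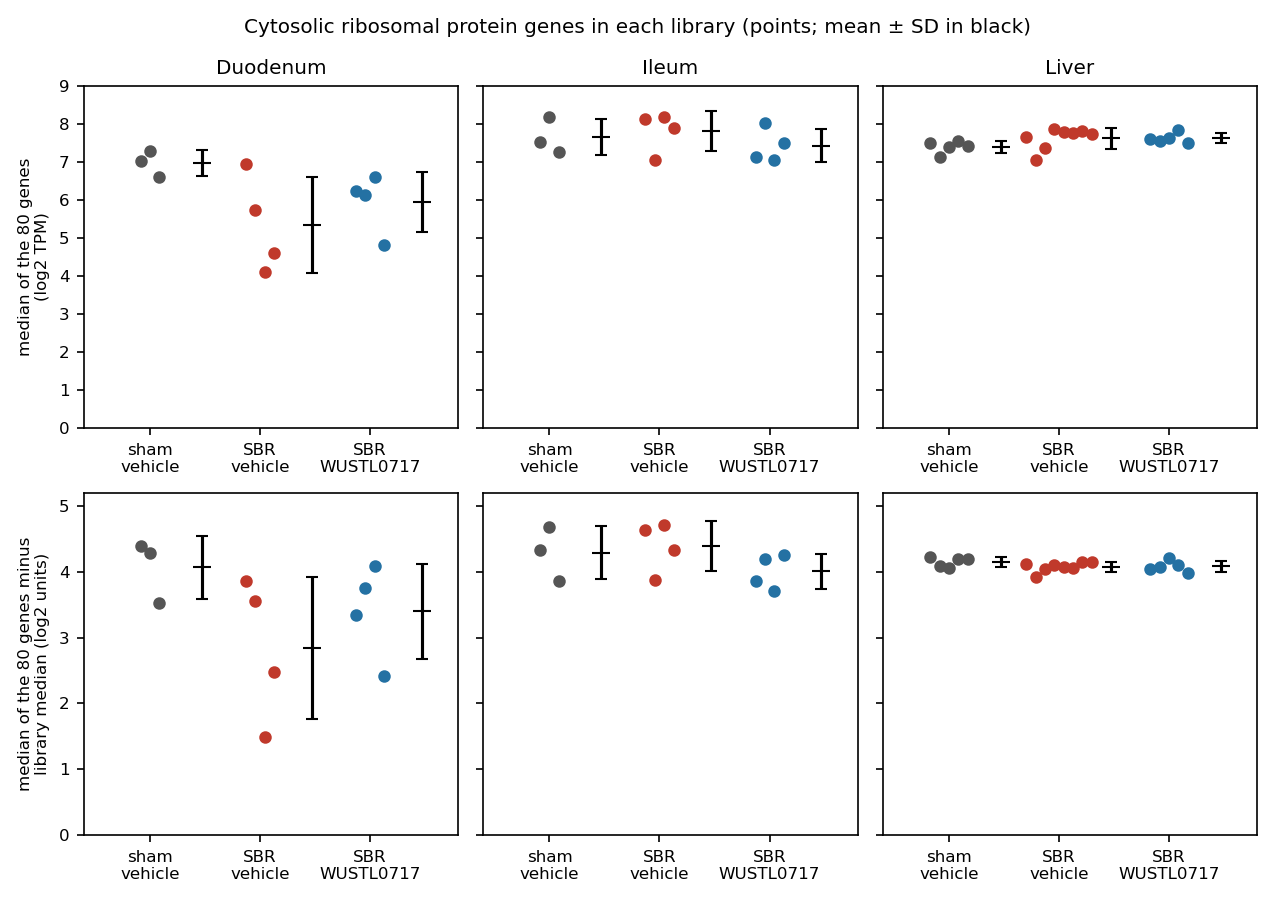
Median of the 80 ribosomal protein genes in each library, as log2 TPM (upper row) and minus the median of all genes of the library in log2 units (lower row), by tissue and group. Points are libraries, black bars the mean ± SD. The duodenal SBR libraries spread from 4.11 to 6.94, and the ileal and liver groups overlap.

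In the duodenum the median of the ribosomal protein genes lay below the sham range in 3 of the 4 SBR vehicle libraries as deposited. No member passed the adjusted test in the main fit, and the resected mice differed widely. The median of the 80 genes stood at 7.02, 7.28 and 6.61 log2 TPM in the 3 sham libraries and at 6.94, 5.73, 4.11 and 4.60 in the 4 SBR vehicle libraries. SBR vehicle replicate 1 lay within the sham range and the other 3 lay below it. With centred libraries replicates 1 and 2, at 3.87 and 3.56, lay within the sham range of 3.52 to 4.39. Replicates 3 and 4, at 1.49 and 2.47, lay below it. In SBR vehicle replicate 3 all 80 genes were below their lowest sham value, in replicate 4 79, in replicate 2 64 and in replicate 1 12, while 14 genes in replicate 1 were above their highest sham value. The genes held 1.74 to 2.76% of the summed TPM in sham duodenum and 0.236 to 2.25% after SBR. As a share of protein-coding TPM they held 3.42 to 6.88% in sham and 0.546 to 3.68% after SBR.

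The log2 fold change of SBR vehicle against sham vehicle was negative for 80 of the 80 genes, with a median of -1.55 beside -0.36 over all genes tested, and from -2.42 to -0.14. No member passed limma with Benjamini-Hochberg adjustment at 0.05, nor did any other gene (0% of 15093 called), and the unmoderated two-sample test called 0 members as well. At an unadjusted p under 0.05, 52 of the 80 genes passed beside 16.1% of all genes. With 1 library left out that count fell as low as 16, without SBR vehicle replicate 4 (9.44% of all genes). It was 18 without SBR vehicle replicate 3 (12.1%) or sham replicate 2 (11.6%) and rose to 67 without SBR vehicle replicate 1 (28.5%). In 12 members the 4 SBR libraries lay wholly below the 3 sham libraries, beside 6.24% of all genes lying lower without overlap. With centred libraries 79 of 80 were lower with a median of -1.14 beside 0.04 for all genes, and 28 of the 80 passed at an unadjusted p under 0.05 beside 16.7% of all genes. One library set the count of calls: without SBR vehicle replicate 1 the median was -2.10 and 22 members passed, all lower, beside 3.5% of genes called lower. With libraries weighted by their spread 55 members passed, beside 15.2% of genes called lower. Large subunit genes had a median of -1.56 and small subunit genes of -1.51.

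The stalk proteins show how far the resected mice differed. Rplp1 stood at 10.40, 10.68 and 9.96 in sham and at 11.06, 9.92, 7.13 and 8.60 after SBR, a log2 fold change of -1.17 ± 0.79 (SE). Rplp0 stood at 9.15, 9.30 and 8.74 in sham and at 9.52, 7.52, 6.19 and 6.81 after SBR (-1.55 ± 0.69). Rplp2, which pairs with Rplp1, stood at 6.57, 7.23 and 7.42 and at 7.57, 5.96, 4.62 and 4.63 (-1.38 ± 0.69). In all 3 genes SBR vehicle replicate 1 was above every sham library and the other 3 were below every sham library, replicate 2 by little for Rplp1.

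The members with the smallest p belong to the large subunit. Rpl36 stood at 9.51, 9.89 and 9.74 in sham and at 9.08, 7.77, 5.76 and 6.55 after SBR, a log2 fold change of -2.42 ± 0.72 (SE, limma adjusted p = 0.271). Rpl6 stood at 6.87, 6.72 and 6.73 in sham and at 6.53, 4.53, 4.22 and 4.10 after SBR (-1.93 ± 0.60). Rpl29 stood at 7.53, 7.34 and 8.21 in sham and at 6.98, 5.72, 4.56 and 5.08 after SBR (-2.11 ± 0.66). The groups did not overlap for these 3 genes. Rpl38, linked to the translation of Hox messenger RNAs in embryos, stood at 8.89, 9.47 and 9.07 in sham and at 8.89, 8.18, 4.86 and 6.06 after SBR (-2.15 ± 0.91), so that its groups met within rounding without overlapping.

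Among small subunit genes, Rpsa, which is also known as the laminin receptor, stood at 8.28, 8.16 and 7.96 in sham and at 8.81, 7.36, 4.45 and 5.99 after SBR. Rps6, the target of the S6 kinases, had a log2 fold change of -1.50 ± 0.70 (SE) and Rps19, the gene most often mutated in Diamond-Blackfan anemia, of -1.70 ± 0.66. Rps27a, whose product is made as a fusion with ubiquitin, had -1.16 ± 0.84. Of the large subunit, Rpl5 and Rpl11, which bind Mdm2 and restrain its action on p53, had -1.46 ± 0.65 and -1.90 ± 0.81. Rpl3 of the peptidyl transferase centre had -1.62 ± 0.68, Rpl10, a late-joining protein, -1.99 ± 0.67, Rpl22 -1.72 ± 0.70 and Rpl13a -1.36 ± 0.62. None of these passed the adjusted test.

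**Figure D2:**
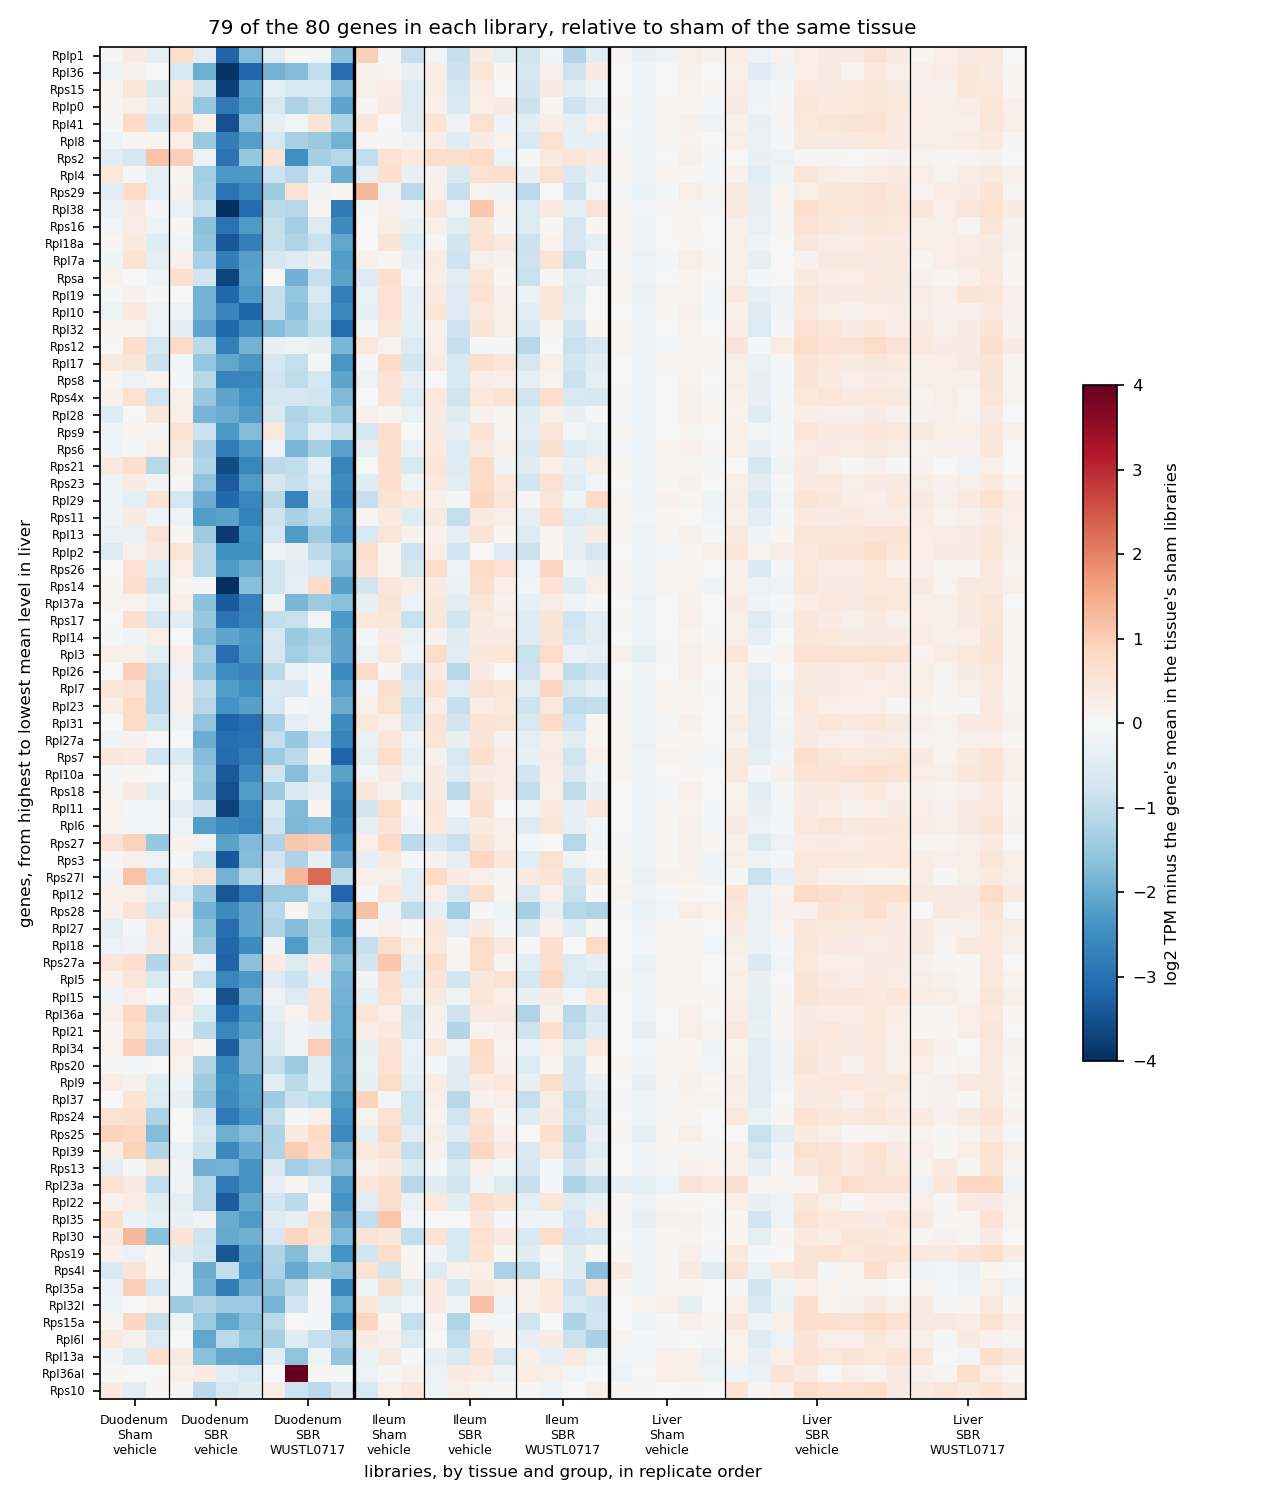
Log2 TPM of 79 of the 80 genes (rows, from highest to lowest mean level in liver) in each of the 40 libraries (columns), minus the gene's mean in the sham libraries of the same tissue. Colours saturate at 4 log2 units. Duodenal SBR vehicle replicates 3 and 4 and SBR WUSTL0717 replicate 4 are blue over nearly the whole family, and liver columns are nearly uniform.

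The 3 smallest differences were those of Rpl36al, Rps10 and Rps27l, and none was tested against the rest of the family. Rpl36al stood at 2.13, 2.07 and 2.08 in sham duodenum and at 2.28, 2.43, 1.63 and 1.46 after SBR (-0.14 ± 0.92, SE), whereas its partner Rpl36a stood at 6.47, 7.09 and 5.23 and at 6.48, 5.65, 3.18 and 3.91 (-1.46 ± 0.83). Rps10 stood at 2.23, 1.48 and 1.99 in sham and at 2.01, 0.865, 1.25 and 1.41 after SBR (-0.52 ± 0.38). Rps27l, a p53-responsive copy of Rps27, stood at 5.69, 6.95 and 4.82 in sham and at 6.11, 6.30, 3.93 and 4.69 after SBR (-0.57 ± 0.86). Rps27 itself had -0.99 ± 0.92, and Rps27l minus Rps27 averaged -0.46 ± 0.64 in sham (SD, n = 3) and -0.03 ± 0.30 after SBR (n = 4). The pseudogene Rps4l had -1.37 ± 0.52 (SE) and its parent Rps4x -1.47 ± 0.63.

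Sequence around the transcription start was compared, as a description, for a few members. RefSeq promoter windows (GRCm38.p6, 250 bases before to 50 after the start) matched 58 of the 80 genes in 69 windows. A run of at least 7 C or T bases on the transcribed strand that reaches within 5 bases of the annotated start was present in 40.6% of the member windows and 13.5% of all 32851 windows. CCGGAA, searched on both strands, was in 47.8% of member windows and 14.9% of all, GGGCGG in 60.9% and 35.7%, and TATAAA in 10.1% and 13.6%. The motifs were searched without regard to overlap with each other or with the run. The windows below run from 10 bases before to 20 bases after the annotated start, 5′ to 3′, with the run of C and T in capitals, and show Rpl38, with the second largest difference in duodenum, Rpl28 and Rplp2, with differences near the median of the family (-1.47 and -1.38), the 3 members with the smallest differences (Rps10, Rpl36al, Rps27l), Rps27 as the partner of Rps27l, and Rps12, which is described for the liver.
Rpl38, chr11:114668570-114668599, plus strand: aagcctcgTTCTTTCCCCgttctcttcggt
Rpl28, chr7:4792955-4792984, plus strand: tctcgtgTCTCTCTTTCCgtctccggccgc
Rplp2, chr7:141447641-141447670, plus strand: cagcgTCTTCCTTTCgccgccggacgccgc
Rps10, chr17:27635225-27635254, minus strand: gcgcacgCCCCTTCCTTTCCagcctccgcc
Rps27, chr3:90213629-90213658, minus strand: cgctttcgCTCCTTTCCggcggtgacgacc
Rps27l, chr9:66946076-66946105, plus strand: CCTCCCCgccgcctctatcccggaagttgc
Rpl36al, chr12:69184048-69184077, minus strand: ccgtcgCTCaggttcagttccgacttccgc
Rps12, chr10:23787190-23787219, minus strand: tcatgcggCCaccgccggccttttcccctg

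The run was 13 bases long in Rps10, 11 in Rpl28, 10 in Rpl38 and Rplp2, 9 in Rps27, 3 in Rpl36al and 2 in Rps12, and the 9-base run of Rps27l, of which 7 bases are shown, ends before the start of the first of its 2 annotated starts. Rps10, with a long run, and Rpl36al, with a short one, both had small differences in duodenum. Over the matched members, the 28 with a run of at least 7 had a median log2 fold change of -1.49 and the 30 with a shorter run of -1.57 in SBR vehicle against sham vehicle duodenum. The windows rest on the annotated start of a gene, which may differ from the start used in these tissues.

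**Figure D3:**
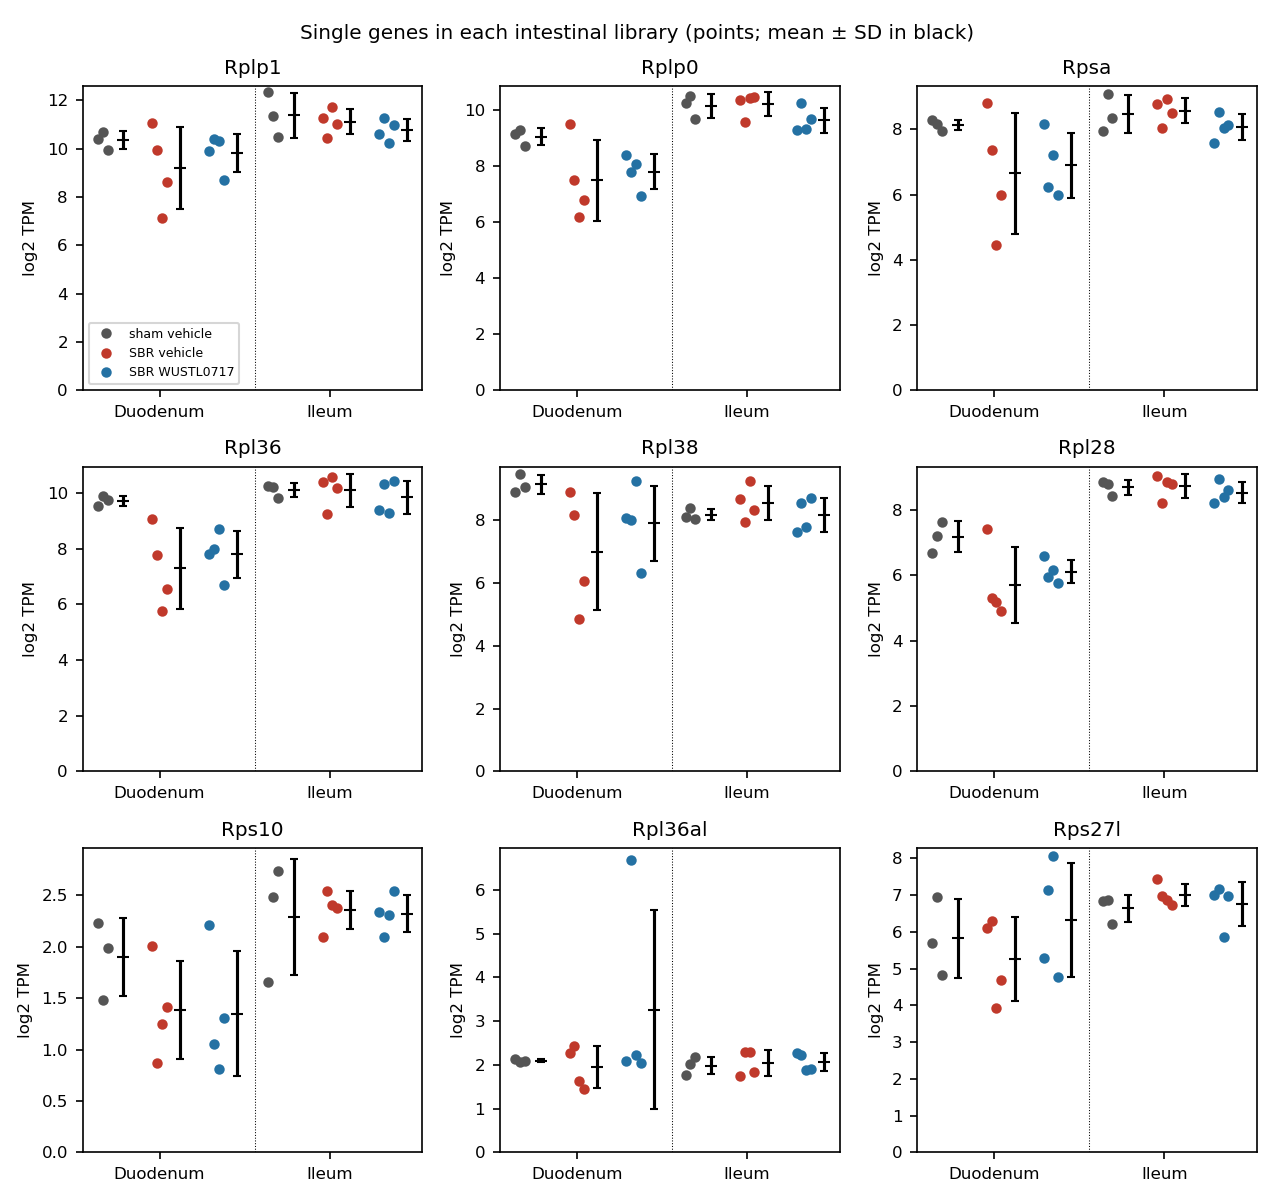
Log2 TPM of 9 ribosomal protein genes in each duodenal and ileal library, by group. Points are libraries, black bars the mean ± SD. SBR vehicle replicate 1, the leftmost red point, lies at or near the sham level in duodenum for most of these genes, and 1 SBR WUSTL0717 library is at 6.67 for Rpl36al.

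In duodenum of SBR mice given WUSTL0717 no member passed an adjusted test against SBR vehicle. The median of the 80 genes was 6.23, 6.14, 6.59 and 4.81 in the 4 SBR WUSTL0717 libraries, each below the lowest sham library, at 6.61, and all within the SBR vehicle range. With centred libraries 2 of the 4, at 3.76 and 4.09, lay within the sham range of 3.52 to 4.39. SBR vehicle replicates 1 and 2, at 3.87 and 3.56, lay within that range as well. The share of protein-coding TPM held by the family averaged 5.08 ± 1.73% in sham (SD, n = 3), 2.09 ± 1.40% in SBR vehicle (n = 4) and 1.93 ± 0.65% in SBR WUSTL0717 (n = 4). The share of the summed TPM averaged 2.15, 0.959 and 0.971% in the same order, and the 2 SBR groups overlapped in both shares. Against SBR vehicle 77 of the 80 lay higher, and their median log2 fold change was 0.52 beside 0.04 for all genes. Limma called 0 members after adjustment (0.258% of all genes called) and 0 at an unadjusted p under 0.05 (5.31% of all genes), and the unmoderated two-sample test called 0. Without SBR vehicle replicate 1, 16 members passed at an unadjusted p under 0.05 beside 9.23% of all genes. With library weights 4 passed beside 12.5%. The median was 0.10 without SBR vehicle replicate 3 and 1.05 without SBR vehicle replicate 1. It was 0.09 after rescaling to protein-coding genes, where 51 of 80 were higher. Rps29, the member with the smallest p, stood at 8.18, 6.72, 5.06 and 5.41 with vehicle and at 6.60, 8.64, 7.88 and 8.14 with WUSTL0717 (1.47 ± 0.69, SE, limma adjusted p = 0.961). Rpl36al had 1.31 ± 0.85, which rests on 1 library at 6.67 while the other 3 stood at 2.10, 2.22 and 2.05. Rpl39 had 1.07 ± 0.75, and the members on the other side were Rps4l (-0.22 ± 0.48), Rps2 (-0.15 ± 0.84) and Rps10 (-0.03 ± 0.35).

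Against sham vehicle, 78 of 80 genes were lower with WUSTL0717, with a median of -1.09 beside -0.32 for all genes. Limma called 0 members (0.802% of all genes called), 14 passed at an unadjusted p under 0.05 beside 16.9% of all genes, and the unmoderated two-sample test called 0. The 14 became 2 without SBR WUSTL0717 replicate 4 (11.5% of all genes), 20 without replicate 3 (11.8%) and 32 with the 2 groups alone (21.1%). After rescaling to protein-coding genes, chosen after seeing the data, 48 passed beside 36.5%, and 15 were called lower after adjustment beside 12.5%. With centred libraries 74 of 80 were lower with a median of -0.72 beside 0.04, and 0 members were called and 8 passed at an unadjusted p under 0.05 beside 18.3% of all genes. The smallest p among lower members were those of Rps4l (-1.59 ± 0.52, SE, limma adjusted p = 0.201), Rpl6 (-1.71 ± 0.60) and Rpl32 (-1.81 ± 0.65). Rpl36al (1.16 ± 0.92) and Rps27l (0.50 ± 0.86) were the 2 that were higher. Rps27l stood at 5.29, 7.15, 8.07 and 4.78, above the highest sham value of 6.95 in 2 libraries and below the lowest of 4.82 in 1. This comparison and the SBR vehicle comparison share their 3 sham libraries.

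Most other genes of protein synthesis also lay lower in resected duodenum, and respiratory chain genes lay on both sides of 0. Over all genes tested 69.9% were lower, with a median of -0.36, and 16.1% had an unadjusted p under 0.05. Of 76 mitochondrial ribosomal protein genes tested 73 were lower in SBR vehicle than in sham (median -1.08), and 26 had an unadjusted p under 0.05. Of 22 translation factors and other terminal oligopyrimidine mRNAs 21 were lower (median -1.06), among them the elongation factor Eef1a1 (-1.18 ± 0.66, SE) and the ribosome-bound Tpt1 (-1.47 ± 0.74). Of 29 ribosome assembly and RNA polymerase I genes 29 were lower (median -0.90), among them the methyltransferase Fbl (-1.38 ± 0.56) and the snoRNP protein Nop10 (-2.15 ± 0.68). The 6 ribosomal protein genes outside the symbol rule had a median of -0.76, with Rack1 at -1.54 ± 0.62 and Rps3a1 at -1.21 ± 0.78, whereas Fau, made as a fusion with a ubiquitin-like protein, had -0.05 ± 0.65. Of 16 regulators of ribosomal protein synthesis 14 were lower (median -0.50) and 1 had an unadjusted p under 0.05, with Mtor at -0.45 ± 0.58, Larp1 at -1.12 ± 0.66 and Myc at -1.05 ± 0.85. Among 79 nuclear oxidative phosphorylation subunits 41 were lower and 38 higher, with a median of -0.01. Limma called none of the genes of these lists after adjustment.

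Several lists of cell type markers were lower in resected duodenum, and others were not. The 7 crypt and cycling markers, all in the table, summed to 47.6, 51.3 and 57.9 TPM over the sham libraries and to 37.02, 17.4, 13.6 and 9.40 in SBR vehicle replicates 1 to 4. They summed to 32.8, 32.3, 36.3 and 13.8 in SBR WUSTL0717 replicates 1 to 4. Of 10 lymphocyte markers 8 were in the table, and they summed to 477 to 647 TPM in sham, 162 to 444 in SBR vehicle and 115 to 277 in SBR WUSTL0717. The 2 Paneth cell markers summed to 49.0 to 76.8 TPM in sham, 18.7 to 28.96 in SBR vehicle and 20.6 to 42.7 in SBR WUSTL0717, so that both SBR groups lay below sham without overlap, as for the crypt and lymphocyte lists. The 5 macrophage markers summed to 47.4 to 176 TPM in sham, 24.9 to 111 in SBR vehicle and 28.1 to 40.8 in SBR WUSTL0717, and the 3 cholangiocyte markers to 66.4 to 128, 30.3 to 154 and 38.8 to 81.2. The 4 pancreas markers ranged from 12.1 to 776 TPM over the 11 duodenal libraries and from 41.8 to 701 within sham. The 8 epithelial markers summed to 684 to 829.4 TPM in sham and to 477 to 1623 in SBR vehicle. No marker of these lists was under 0.1 TPM in every duodenal library of a group. The part of these cells in the difference of the ribosomal protein genes was not tested.

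In the ileum the family did not separate the groups. The median of the 80 genes was 7.52, 8.18 and 7.25 in sham, 8.14, 7.06, 8.19 and 7.89 in SBR vehicle and 7.14, 8.02, 7.06 and 7.51 in SBR WUSTL0717, and the 3 groups overlapped. Against sham, SBR vehicle had a median log2 fold change of 0.10 beside 0.07 for all genes, and 58 of 80 were higher. Limma called 0 members (0.349% of all genes called) and 0 at an unadjusted p under 0.05 (8.46%), and the unmoderated two-sample test called 0. The members with the smallest p were Rps2 (0.49 ± 0.41, SE), Rps26 (0.46 ± 0.41) and Rpl18 (0.40 ± 0.39) on the higher side and Rps28 (-0.48 ± 0.50), Rpl23a (-0.48 ± 0.43) and Rpl13a (-0.25 ± 0.33) on the lower. The median was -0.07 without sham replicate 3 and 0.33 without sham replicate 2.

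With WUSTL0717, 78 of 80 ileal genes were lower than in SBR vehicle, with a median of -0.33 beside 0.00 for all genes. No member passed, at an adjusted p (0.0697% of all genes called), at an unadjusted p under 0.05 (6.87%) or in the unmoderated two-sample test, which called 0. With library weights 31 members passed at an unadjusted p under 0.05 beside 18.1% of all genes, and after quantile normalization 7 beside 8.15%. Without SBR WUSTL0717 replicate 2, 6 passed beside 13.4%. None of these fits called a member after adjustment. Rpl36a stood at 6.94, 5.91, 7.11 and 7.11 with vehicle and at 5.56, 6.92, 5.63 and 6.09 with WUSTL0717 (-0.72 ± 0.41, SE, limma adjusted p = 0.834). Rplp0 stood at 10.38, 9.60, 10.43 and 10.50 and at 9.32, 10.27, 9.32 and 9.70 (-0.57 ± 0.34), and Rpl17 had -0.63 ± 0.40. In both genes shown, replicate 2 of each group stood apart from the other 3 libraries, low with vehicle and high with WUSTL0717. Rpl13a (0.26 ± 0.31) and Rpl36al (0.03 ± 0.23) were the 2 that were higher. Against sham, 68 of 80 were lower with a median of -0.21 beside 0.07, and limma called 0 members (2.17% of all genes called) and 0 at an unadjusted p under 0.05 (14.1%), as the unmoderated two-sample test did. Leading members were Rps28 (-0.99 ± 0.50), Rpl23a (-0.80 ± 0.43) and Rps12 (-0.67 ± 0.39) on the lower side and Rpl18 (0.34 ± 0.39), Rps2 (0.30 ± 0.41) and Rpl29 (0.26 ± 0.41) on the higher. These 2 comparisons share the WUSTL0717 libraries. After rescaling each library to its protein-coding genes, an alternative chosen after seeing the data, the median was -0.54 against SBR vehicle beside -0.20 for all genes, 79 of 80 being lower, and 0 members passed after adjustment and 13 at an unadjusted p under 0.05 beside 10.6% of all genes. Against sham the rescaled median was -0.48 beside -0.18, with 0 members passing after adjustment and 9 at an unadjusted p under 0.05 beside 16.5%. With centred libraries the median was -0.32 against SBR vehicle and -0.28 against sham, with 0 members passing after adjustment and 0 and 3 at an unadjusted p under 0.05, beside 8.1 and 15.6% of all genes. The family's share of the protein-coding TPM in ileum was 4.33 to 7.01% in sham, 4.20 to 7.75% in SBR vehicle and 3.33 to 4.57% in SBR WUSTL0717 mice, and the groups overlapped.

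The difference of the effects between regions was tested in limma on the 22 intestinal libraries. For resection, duodenum minus ileum, the median over the 80 genes was -1.63 beside -0.44 for all genes and 80 of 80 were negative. Adjusted for all genes no member passed (smallest adjusted p = 0.254, 0.0754% of all genes called), and 39 passed at an unadjusted p under 0.05 beside 13.8% of all genes. With centred libraries the median was -1.15 beside 0.03, 79 of 80 were negative, no member passed after adjustment and 19 passed at an unadjusted p under 0.05 beside 13.2% of all genes. For WUSTL0717 against SBR vehicle the median was 0.83 beside 0.03, 79 of 80 being positive, with 0 members passing after adjustment (0.0251% of all genes called) and 0 at an unadjusted p under 0.05 (3.33%), and with centred libraries the median was 0.78 with 0 members passing at either p.

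Between the regions, most members lay lower in duodenum than in ileum, as did most genes, and the number that passed differed widely between the groups of mice. In sham mice 76 of 80 genes lay lower in duodenum, as did 74.2% of all genes, with a median of -0.70 beside -0.52 for all genes. Limma called 1 of them lower, or 1.25%, beside 10.8% of all genes, and after centring the median was -0.25. That gene was Rpl28 (chr7:4792874-4795066, plus strand), a large subunit protein, which stood at 6.68, 7.20 and 7.62 in duodenum and at 8.84, 8.79 and 8.42 in ileum (-1.52 ± 0.51, SE, limma adjusted p = 0.0474). Its groups did not overlap, and the call was lost with centred libraries and in 5 of the 6 fits that left out 1 sham library. Rps13 (-1.21 ± 0.47) and Rpl14 (-1.20 ± 0.52) came next. Rpl38 was higher in duodenum, at 8.89, 9.47 and 9.07 against 8.12, 8.38 and 8.03 in ileum, without overlap (0.97 ± 0.78, adjusted p = 0.401). Rps14 had 0.46 ± 0.81 and Rpl18 0.13 ± 0.63.

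In SBR vehicle mice the median difference was -2.36 beside -0.98 for all genes, and limma called 76 of 80 members lower in duodenum, beside 50.2% of all genes called lower. Rpl28 stood at 7.41, 5.31, 5.18 and 4.89 in duodenum and at 9.04, 8.21, 8.86 and 8.77 in ileum (-3.02 ± 0.44, SE, limma adjusted p = 2.03e-05). Rps13 had -2.65 ± 0.41 and Rpl14 -2.83 ± 0.45, with no overlap of groups in these 3. The members that did not pass were Rpl36al (-0.09 ± 0.65), Rps14, Rps2 (-1.51) and Rpl38 (-1.55 ± 0.68). After centring, 47 members were called lower beside 14.5% of all genes. In SBR WUSTL0717 mice the median was -1.45 beside -0.95, and 50 members were called lower beside 48.7% of all genes. The 50 are 62.5% of the members. After centring, 10 were called lower, or 12.5% of the members, beside 13.9% of all genes. Rpl28 (-2.42 ± 0.44), Rpl14 (-2.27 ± 0.45) and Rpl6 (-2.26 ± 0.46) had the smallest p, and Rpl36al (1.19 ± 0.65) was the 1 member that was higher, which passed after centring (limma adjusted p = 0.0288). Its value rests on duodenal SBR WUSTL0717 replicate 2 at 6.67, while the other 3 duodenal libraries stood at 2.05 to 2.22 and the ileal libraries averaged 2.07 ± 0.21 (SD, n = 4). Nuclear oxidative phosphorylation subunits went the other way, with medians of 0.96, 0.91 and 1.39 in the sham vehicle, SBR vehicle and SBR WUSTL0717 groups, and 15, 34 and 48 of 81 called higher in duodenum, beside 610, 1078 and 1136 of all 15923 genes. Of 29 ribosome assembly genes, 1 was called lower in duodenum in sham vehicle, 29 in SBR vehicle and 27 in SBR WUSTL0717 mice, with medians of -0.76, -1.70 and -1.41.

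**Figure D4:**
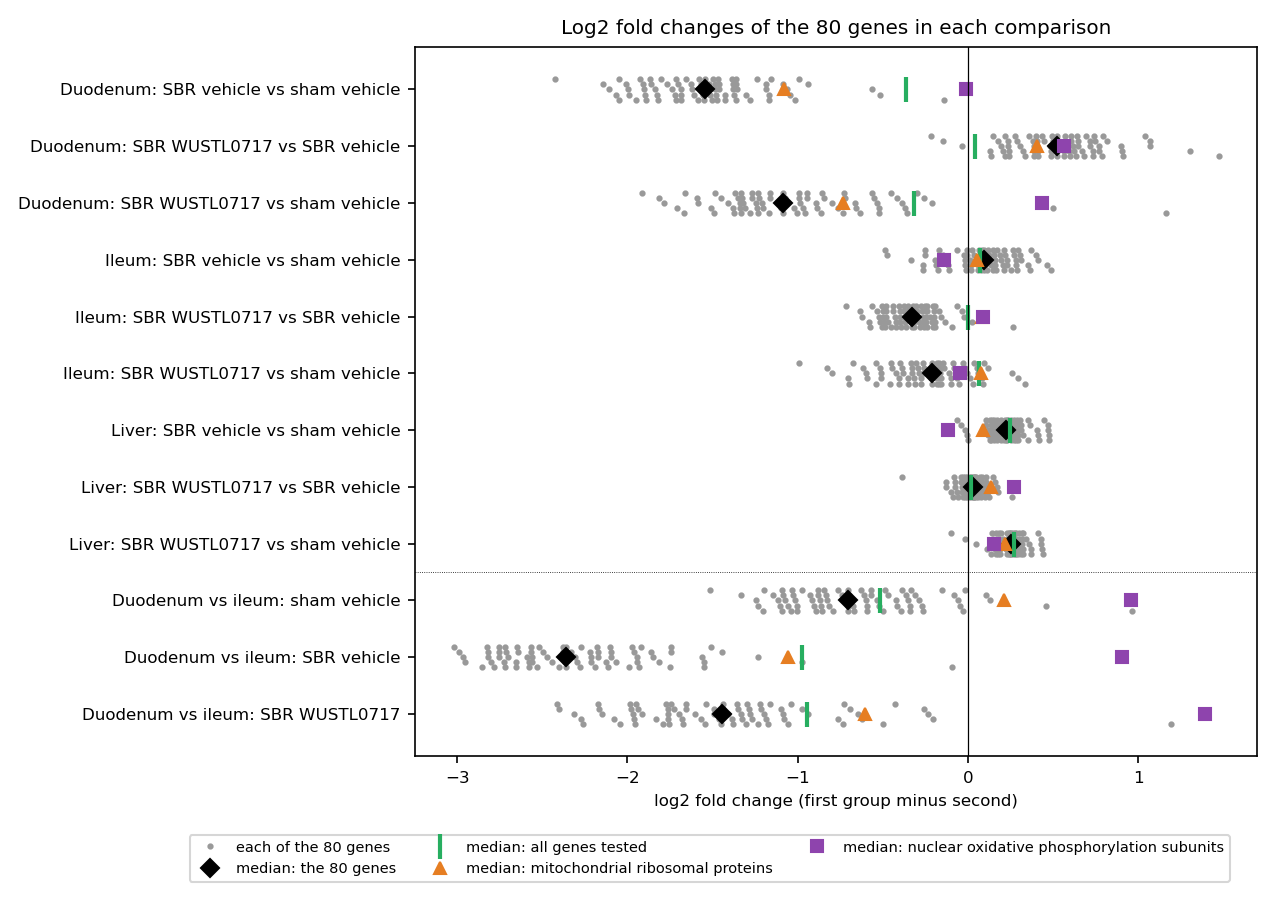
Log2 fold change (first group minus second) of each of the 80 genes in the 12 comparisons (grey points), with the median of the 80 genes, of all genes tested, of mitochondrial ribosomal protein genes and of nuclear oxidative phosphorylation subunits. The medians of the 80 genes run from -2.36 to 0.52, and in liver they lie beside the median of all genes.

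In the liver the ribosomal protein genes were a little higher after resection, by about as much as the table as a whole. The median of the 80 genes ranged from 7.14 to 7.55 log2 TPM over the 5 sham libraries. It ranged from 7.06 to 7.88 over the 8 SBR vehicle libraries and from 7.51 to 7.84 over the 5 SBR WUSTL0717 libraries. Minus the library median, the values lay between 4.07 and 4.23 in sham, 3.93 and 4.15 in SBR vehicle and 3.98 and 4.21 in SBR WUSTL0717. As a share of protein-coding TPM the family held 4.20 to 4.41% in sham, 4.37 to 4.81% in SBR vehicle and 4.04 to 4.49% in SBR WUSTL0717. SBR vehicle replicate 2, where protein-coding genes held 39.7% of the summed TPM, had 63 of 80 genes below their lowest sham value, and replicate 3 had 8, whereas in the other 6 SBR vehicle libraries 67 to 75 genes were above their highest sham value.

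Limma called 15 of the 80 genes higher in SBR vehicle than in sham liver, beside 37.4% of all genes called higher, and none lower. The median log2 fold change was 0.23 beside 0.25 for all genes. With centred libraries the median was -0.08 beside -0.06, and 3 members were called higher (20.3% of all genes) and 22 lower (28.9% of all genes). Rps12, Rps10 and Rps15a, all of the small subunit, were the 3 called higher on both scales. Rps12, a sensor of cell competition in flies, ranged from 7.78 to 8.12 around a median of 8.05 in sham and from 7.94 to 8.73 around 8.52 in SBR vehicle (0.48 ± 0.12, SE, limma adjusted p = 0.00346). Rps10 ranged from 1.74 to 1.91 around 1.84 in sham and from 1.95 to 2.56 around 2.41 in SBR vehicle (0.47 ± 0.10, limma adjusted p = 0.00132), and its groups did not overlap. Rplp2 ranged from 7.31 to 7.78 around 7.56 in sham and from 7.70 to 8.26 around 8.04 (0.45 ± 0.10, limma adjusted p = 0.00143). After centring Rplp2 had 0.14 with an adjusted p of 0.15 in limma. Among the other called members were Rpl12 (0.47), Rpl10a (0.42), Rpl3 (0.41), Rps19 (0.37), Rpl38 (0.36), Rpl13 (0.35), Rps24 (0.31), Rplp0 (0.31), Rps9 (0.28) and Rpl27 (0.27). At the other end were Rpl35a (-0.06 ± 0.13), Rps25 (-0.04 ± 0.17) and Rps27l (-0.02 ± 0.16), which were called lower after centring (-0.37, -0.35 and -0.32).

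Cell type markers also differed between sham and SBR vehicle liver. The crypt and cycling markers summed to 39.2 to 52.9 TPM in sham and 57.1 to 129 in SBR vehicle, smooth muscle and stroma markers to 123 to 214 and 311 to 525, cholangiocyte markers to 33.8 to 106 and 171 to 336, and epithelial markers to 834 to 1350 and 2032 to 4244. None of these 4 lists overlapped between the 2 groups. Krt19 is in both the cholangiocyte and the epithelial list, and 37.4% of all genes were called higher in this comparison. The TPM were recovered from batch-adjusted values and were not centred. Hepatocyte markers summed to 1501 to 2072 TPM in sham and 846 to 1907 in SBR vehicle. Pancreas markers summed to 795 TPM in SBR vehicle replicate 7 and to at most 32.4 in every other liver library. The part of these cells in the liver results was not tested.

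Single liver libraries moved the number of calls. Without SBR vehicle replicate 2 limma called 66 members, beside 52.3% of all genes called higher, and without replicate 3 it called 25, beside 41.1%. Without sham replicate 2 it called 6 (28.9%), and without SBR vehicle replicate 6 or 7 or sham replicate 5 it called 9 (33.2, 33.6 and 32.7%). The median log2 fold change lay between 0.17 and 0.31 in the fits that left out 1 library. With library weights 74 members were called higher beside 60.1% of all genes, and in the unmoderated two-sample test 10 beside 32.9%.

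**Figure D5:**
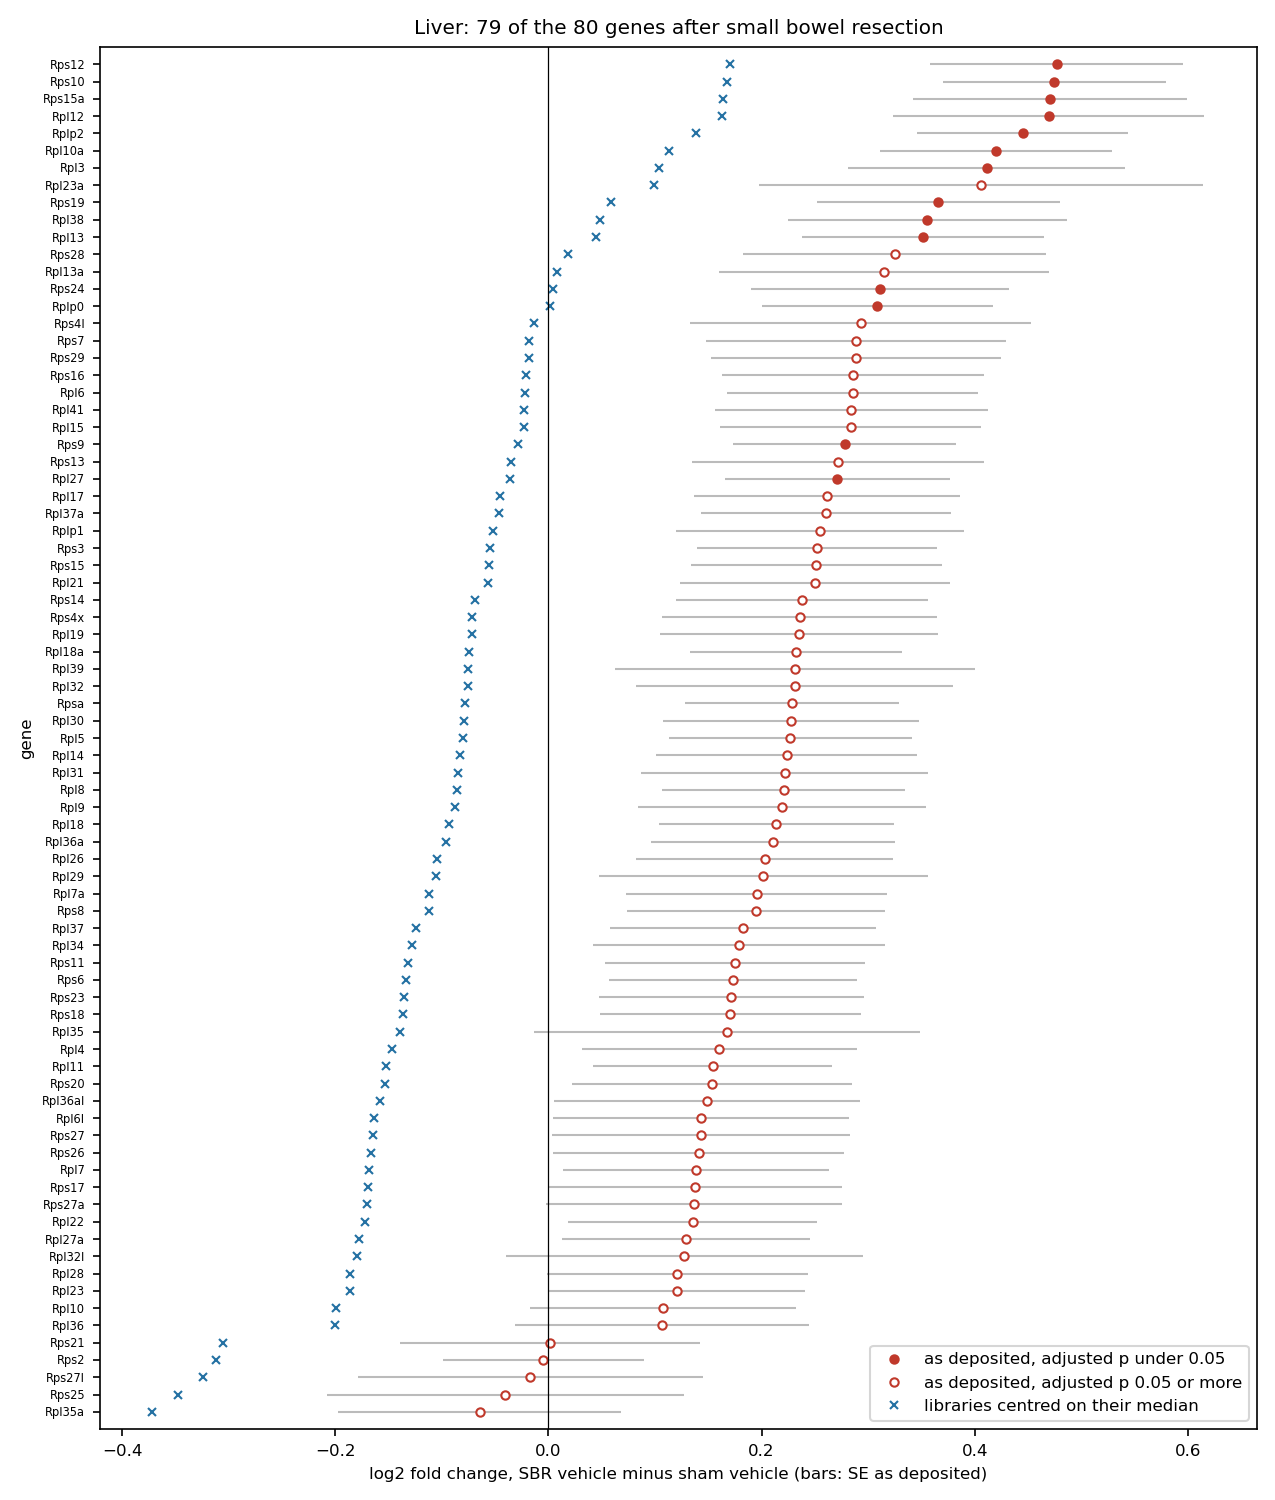
Log2 fold change of 79 of the 80 genes in liver, SBR vehicle minus sham vehicle, with its standard error (circles, filled where the adjusted p was under 0.05), and the same after centring libraries on their median (crosses). Circles lie between -0.06 and 0.48 and crosses between -0.37 and 0.17.

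Between WUSTL0717 and vehicle in SBR liver no member passed the adjusted test on the values as deposited. The median log2 fold change was 0.03 beside 0.02 for all genes, and 53 of 80 were higher. After rescaling to protein-coding genes, chosen after seeing the data, 72 of 80 were lower with a median of -0.080 beside -0.081, and 15 were called lower beside 16.3% of all genes. After quantile normalization 10 were called lower (8.48%), and with library weights 13 (13.8%). As deposited, limma called 0 members (4.1% of all genes called), 1 passed at an unadjusted p under 0.05 (17.2% of all genes), and the unmoderated two-sample test called 0. That member was the pseudogene Rps4l, which ranged from 5.26 to 6.19 around 5.88 with vehicle and from 5.25 to 5.59 around 5.40 with WUSTL0717 (-0.39 ± 0.16, SE, limma adjusted p = 0.202), with overlap. Rps27l (0.26 ± 0.16), Rps2 (0.12 ± 0.09) and Rpl36 (0.16 ± 0.14) led the higher side, and Rplp2 (-0.13 ± 0.10) and Rpl3 (-0.13 ± 0.13) followed Rps4l on the lower. Against sham, 78 of 80 were higher with a median of 0.25 beside 0.27, and limma called 6 members higher beside 27.9% of all genes. These were Rps19 (0.44 ± 0.13), Rpl38 (0.44 ± 0.15), Rps10 (0.43 ± 0.12), Rps12 (0.41 ± 0.13), Rpl10a (0.36 ± 0.12) and Rplp2 (0.32 ± 0.11), each also called in SBR vehicle against the same 5 sham libraries. With centred libraries the direction turned: 63 of 80 were lower with a median of -0.046 beside -0.032, none of these 6 was called (limma adjusted p from 0.0895 to 0.915), and 0 members were called higher (10.7% of all genes) and 3 lower (8.95%), which were Rpl23, Rpl35a and Rps21. As deposited, Rps4l (-0.10 ± 0.18) and Rpl35a (-0.02 ± 0.15) were the 2 that were lower. The call count was 1 without sham replicate 2 (16% of all genes called higher) or SBR WUSTL0717 replicate 4 (14.8%) and 3 without SBR WUSTL0717 replicate 3 (29%), and it was 36 in the unmoderated two-sample test (35.2% of all genes called higher) and 43 with library weights (50.3%).

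Genes that build the ribosome were also examined in SBR vehicle liver, beside the 15 of 80 calls among its proteins and 37.4% of all genes called higher. These lists were summarised as deposited and not with centred libraries, where 20.3% of all genes were called higher and 28.9% lower. Of 29 ribosome assembly and RNA polymerase I genes 22 were called higher against sham, with a median of 0.41, including the nucleolar protein Nop56 (0.72 ± 0.15, SE), the RNA polymerase I subunit Polr1a (0.43 ± 0.12) and nucleolin, Ncl (0.37 ± 0.12). Of 16 regulators 6 were called higher and 1 lower, with Myc at 2.52 ± 0.24, Mtor at 0.54 ± 0.11, Eif4ebp1 at 0.46 ± 0.14 and the mTOR inhibitor Deptor at -0.43 ± 0.10. Of 22 translation factors 6 were called higher (median 0.18), of 76 mitochondrial ribosomal proteins 5 (median 0.09) and of 81 nuclear oxidative phosphorylation subunits 1, with 3 called lower (median -0.11). Of the 6 ribosomal protein genes outside the symbol rule 2 were called higher, Rack1 (0.37 ± 0.11) and Rpl22l1 (0.43 ± 0.15), a paralog of Rpl22, which itself had 0.14 ± 0.12. Between WUSTL0717 and vehicle in SBR liver none of the ribosome assembly genes or regulators was called, with Myc at -0.69 ± 0.24 (limma adjusted p = 0.124).

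Within a library, the distance of a paralog from its partner overlapped between the groups of the liver. Rps4l minus Rps4x averaged -2.52 ± 0.31 in sham (SD, n = 5), -2.47 ± 0.34 in SBR vehicle (n = 8) and -2.84 ± 0.11 in SBR WUSTL0717 (n = 5). Rps27l minus Rps27 averaged -0.02 ± 0.16, -0.17 ± 0.12 and 0.06 ± 0.13 in the same groups, and Rpl36al minus Rpl36a averaged -4.01 ± 0.22, -4.07 ± 0.27 and -3.93 ± 0.22. In ileum Rpl36al minus Rpl36a averaged -4.76 ± 0.83, -4.72 ± 0.77 and -3.98 ± 0.60, and in duodenum -4.17 ± 0.94, -2.85 ± 1.12 and -2.59 ± 2.14. The duodenal groups overlapped in each of these 3 pairs.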

How the data were processed

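Values were taken from 1 deposited table of log2 TPM for 15958 genes in 40 libraries. Total RNA was depleted of ribosomal RNA with RNase H. Per the submitters' processing notes and the study's methods, the authors aligned reads with STAR to GRCm38, counted uniquely aligned, unambiguous reads with featureCounts, scaled them with edgeR, computed TPM, took log2 and adjusted for batch with ComBat. Intestine was batch 1 and liver batch 2. Ribosomal RNA depletion, multi-mapped reads and the batch adjustment can each shift these values. Of the values, 2752 lay below 0. Every column was used. The values of 1 member and of 1 gene of the lists are not reported here, though both are in the counts.

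Members matched the symbol rule, and members and gene lists were chosen with earlier results of these data known. limma 3.58.1 (R 4.3.3) was fitted to the 3 groups of a tissue, or to the 22 intestinal libraries for regional comparisons, with a variance trend, on genes with a mean of at least 1, which all 80 members passed. Calls are Benjamini-Hochberg adjusted p under 0.05 over all genes tested. Named members are a fixed set of well-known proteins and paralogs, the 3 with the smallest p in each direction of a comparison, and the 3 highest and lowest in level. Rpl28, Rpl38, Rps10, Rps12 and other members given in full outside a comparison that named them were chosen after their values were seen. TPM was recovered with a pseudocount of 1, which the sources used here do not state. Fits were tested on simulated data. Alternatives were centring, quantile normalization, filters, pseudocounts, library weights, other fits, the replicate block and leaving out libraries. The replicate block added the library number as a factor. Within a tissue it joined libraries of different groups, which are different mice, so it was not a fit by mouse. Between regions it joined duodenum and ileum libraries of the same group and number. Rescaling to protein-coding genes and the regional difference of effects were added after seeing the data. The labels do not say whether libraries of the same number share a mouse, and they were not treated as pairs.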

Additional observations from a re-analysis of the deposited data

Results flagged for a closer look

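A library was singled out where its gap to the nearest library of its group was large beside the whole range of the group. Over 27 members and 3 summaries this was so in 22 of 210 groups. The sham groups of duodenum and ileum, with 3 libraries each, were too small for the rule and were not examined. Chance flags about 1 in 20 groups, and members of 1 library are not independent.

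In duodenum, Rpl28 stood at 7.41 log2 TPM in SBR vehicle replicate 1, with the nearest library at 5.31. Rpl36al stood at 6.67 in SBR WUSTL0717 replicate 2, with the nearest at 2.22, and in SBR WUSTL0717 replicate 4 Rps12 stood at 5.70 and Rps4x at 5.51, with the nearest at 7.22 and 6.53.

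In ileum, SBR vehicle replicate 2 was low for Rplp0 (9.60, nearest 10.38), Rpl5 (6.10, nearest 7.32), Rpl36a (5.91, nearest 6.94) and Rps4x (7.81, nearest 9.02). SBR WUSTL0717 replicate 2 was high for Rpl5 (7.68, nearest 6.32), Rps6 (8.84, nearest 7.81), Rps27a (7.25, nearest 6.20) and Rps4x (9.31, nearest 7.97). SBR WUSTL0717 replicate 3 was low for Rps27 (6.18, nearest 7.18) and Rps27l (5.87, nearest 6.97).

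In liver, sham vehicle replicate 2 was low for Rpl5 (6.37, nearest 6.61), Rpl22 (5.54, nearest 5.81), Rpl17 (7.79, nearest 8.04), Rps27a (6.58, nearest 6.85) and Rpl39 (5.87, nearest 6.07). Rpl36a was low in SBR vehicle replicate 2 (6.19, nearest 6.63). In SBR WUSTL0717, Rps12 was high in replicate 4 (8.68, nearest 8.40) and Rpl36al in replicate 3 (3.23, nearest 2.79).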

How the results depend on the processing

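In duodenum, no member passed in SBR vehicle against sham vehicle under any alternative except library weights (55 called) and leaving out single libraries (0 to 22 called, the highest without SBR vehicle replicate 1), and the median log2 fold change ranged from -2.10 to -1.21 with 1 library left out. In SBR WUSTL0717 against sham vehicle 1 member was called after quantile normalization (0.298% of all genes called lower), 3 with library weights (5.04%) and 15 after rescaling to protein-coding genes (12.5%), an alternative chosen after seeing the data, and all of these were lower. With 1 library left out the calls stayed at 0 and the median ran from -1.30 to -0.75, and for SBR WUSTL0717 against SBR vehicle at 0 and from 0.10 to 1.05. In ileum the calls stayed at 0 with 1 library left out, with medians from -0.07 to 0.33 for SBR vehicle against sham, -0.56 to -0.20 for SBR WUSTL0717 against SBR vehicle and -0.45 to -0.04 for SBR WUSTL0717 against sham. After rescaling to protein-coding genes the calls also stayed at 0, with medians of 0.04, -0.54 and -0.48.

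In liver, SBR vehicle against sham gave 25 calls (3 higher and 22 lower) and a median of -0.080 with centred libraries, 26 calls (23 and 3, beside 22.5 and 26.8% of all genes) after quantile normalization and 26 (21 and 5, beside 35.7 and 13.5%) after rescaling to protein-coding genes. It gave 74 calls with library weights (60.1% of all genes called higher), 9 with the 2 groups alone (34.7%) and 7 with the replicate block (30.6%), all higher. With 1 library left out there were 6 to 66 calls and medians from 0.17 to 0.31. SBR WUSTL0717 against SBR vehicle gave 1 call, higher, with centred libraries (11.6% of all genes called higher). It gave 10 calls after quantile normalization (8.48% of all genes called lower), 13 with library weights (13.8%) and 15 after rescaling to protein-coding genes (16.3%), all lower, and 0 with 1 library left out, with medians from -0.06 to 0.06. SBR WUSTL0717 against sham gave 3 calls, all lower (8.95% of all genes called lower) where the 6 as deposited were higher, and a median of -0.046 with centred libraries, a median of 0.0021 after quantile normalization and of -0.010 after rescaling to protein-coding genes. Its calls numbered 36 with the unmoderated two-sample test (35.2% of all genes called higher), 43 with library weights (50.3%), 42 with the 2 groups alone (39.8%) and 19 with the replicate block (37.2%), all higher, and with 1 library left out 1 to 7, with medians from 0.21 to 0.29.

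Duodenum against ileum in sham mice gave 0 calls and a median of -0.25 with centred libraries. It gave 0 calls with a pseudocount of 0.1, with the 2 groups alone, with the replicate block and after rescaling to protein-coding genes, 9 with library weights (28.2% of all genes called lower), and 0 to 1 with 1 library left out, with medians from -0.89 to -0.47. In SBR vehicle mice there were 47 calls with centred libraries (14.5% of all genes called lower), 50 with the unmoderated two-sample test (36.2%) and 65 to 79 with 1 library left out (41.1 to 55.2%), with medians from -2.89 to -1.94. In SBR WUSTL0717 mice there were 11 calls and a median of -0.56 with centred libraries, 31 calls after quantile normalization (30 lower, beside 17% of all genes) and 31 to 53 with 1 library left out (39.5 to 50.3% of all genes called lower), the lowest without duodenal SBR WUSTL0717 replicate 4, with medians from -1.66 to -1.08. The replicate block changed no other count of calls by over 1.5 times. Libraries of the same number had correlated deviations from -0.14 to 0.45 between duodenum and ileum, -0.29 to 0.32 within duodenum, -0.32 to 0.24 within ileum and -0.20 to 0.17 within liver. Libraries of different numbers were not correlated for reference, so these values cannot tell whether mice were shared. The numbers were not treated as pairs because the labels do not name mice.

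Group means of the member median were 4.07, 2.85 and 3.40 in duodenum, 4.29, 4.39 and 4.01 in ileum and 4.15, 4.08 and 4.08 in liver with centred libraries, in the order sham vehicle, SBR vehicle and SBR WUSTL0717. In that order the share of the summed TPM was 4.65, 2.05 and 2.09% in duodenum, 6.04, 5.85 and 4.14% in ileum and 4.39, 4.45 and 4.34% in liver without the 13 mitochondrially encoded and the 20 most abundant other genes.

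Several single members changed direction, some of them among the most extreme of their comparison, such as Rps28 and Rpl18 in ileum. With library weights the log2 fold change was 0.24 for Rps4l in duodenum (SBR WUSTL0717 against SBR vehicle), -0.10 for Rpl18 and -0.12 for Rpl29 in ileum (SBR WUSTL0717 against sham), 0.0088 for Rpl35a, 0.067 for Rps25 and 0.11 for Rps27l in liver (SBR vehicle against sham), -0.058 for Rpl36 in liver (SBR WUSTL0717 against SBR vehicle) and -0.24 for Rpl18 between regions in sham mice. After quantile normalization it was -0.0072 for Rpl18 and -0.038 for Rpl29 in ileum (SBR WUSTL0717 against sham) and -0.00218 for Rps2 in liver (SBR WUSTL0717 against SBR vehicle). After rescaling to protein-coding genes it was -0.16 for Rpl36al (SBR WUSTL0717 against SBR vehicle) and -0.0091 for Rpl29 (SBR WUSTL0717 against sham) in ileum. With 1 library left out, SBR WUSTL0717 against SBR vehicle in duodenum ranged from -0.53 to 0.17 for Rps4l, -0.82 to 0.48 for Rps2 and -0.32 to 0.17 for Rps10, and against sham from -0.080 to 1.07 for Rps27l. In ileum the ranges were -0.062 to 0.75 for Rpl18 and -0.996 to 0.11 for Rps28 (SBR vehicle against sham), -0.071 to 0.11 for Rpl36al (SBR WUSTL0717 against SBR vehicle), and -0.13 to 0.68 for Rpl18, -0.19 to 0.59 for Rps2 and -0.21 to 0.53 for Rpl29 (SBR WUSTL0717 against sham). In liver they were -0.11 to 0.032 for Rpl35a, -0.13 to 0.080 for Rps25 and -0.082 to 0.11 for Rps27l (SBR vehicle against sham) and -0.088 to 0.042 for Rpl35a (SBR WUSTL0717 against sham), and between regions in sham mice -0.34 to 0.48 for Rpl18. The cause of these changes was not tested. The table holds no read totals, so what depth limits is unknown.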
